A study of Mus musculus with 4 samples.

Results

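Foxr2 binding was examined at the kinesin genes, a family of 39 mouse genes chosen by name. The members are the protein-coding genes of GENCODE release M21 whose symbol is Kif followed by a digit, out of 21853 protein-coding genes on the assembled chromosomes. By known role, 12 are mitotic kinesins, 15 are transport kinesins, 6 belong to the cilium and 6 are other members. One of the other members, Kif1bp, carries the name but encodes a protein that binds kinesins and is not a motor itself. The name rule uses no measured value.

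CUT&RUN, in which a nuclease tethered to an antibody cuts free the DNA around a protein, was performed with an antibody against the V5 tag. The Foxr2 p53LOF group comprised 2 replicates of a neurosphere line from a C57BL/6J tumor made by in utero electroporation (IUE), with V5-tagged Foxr2 driven by the CAG promoter and a CRISPR vector against Trp53. The V5 control group comprised 2 replicates from a separate IUE model on the same strain, with the genotype H3.3G34R and no V5 tag. All 4 samples were cross-linked cell lines given the same antibody, so the groups differ in genotype as well as in the tag, and nothing in the labels says that the replicates of a group were separate cultures. Each deposited peak carries a fold enrichment over the background of its own library. Peak lists held 31909 and 38580 peaks in Foxr2 p53LOF replicates 1 and 2, and 308 and 124 in the V5 control replicates. Read totals are not in a peak list, so the precision of a fold was taken from the fragments at its summit, as a 95% exact Poisson interval that covers counting error only.

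Kinesins are motors that use ATP to walk along microtubules or to take them apart. Mitotic kinesins build the spindle, move chromosomes and finish cell division, and their genes are switched on in dividing cells late in the cell cycle. Transport kinesins carry vesicles, mitochondria and other cargo, over long distances in axons and dendrites. The promoters of many genes of late cell division hold a short element called the CHR, often close to a CCAAT box, while an ETS core is the short sequence recognized by ETS family factors.

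Among the mitotic kinesins with the higher folds, Kif11 and Kif23 are shown with the 200 bases before the start nearest the replicate 1 summit, and Kif21b is shown as a transport kinesin of similar fold. In the same ranking Kif22, Kif1a and Kif13a have an annotated exon next to the start, and no stretch of theirs is printed. Kif20a, which had the highest fold, is not shown, and its promoter holds neither CHR nor CCAAT letters in the 300 bases around the main start. The stretches are chr19:37376203-37376402 on the plus strand for Kif11, chr9:61946775-61946974 on the minus strand for Kif23 and chr1:136131189-136131388 on the plus strand for Kif21b, all in mm10. Capitals mark matches to the CHR (TTTGAA or its reverse complement TTCAAA) and to the CCAAT box (CCAAT or ATTGG).
Kif11: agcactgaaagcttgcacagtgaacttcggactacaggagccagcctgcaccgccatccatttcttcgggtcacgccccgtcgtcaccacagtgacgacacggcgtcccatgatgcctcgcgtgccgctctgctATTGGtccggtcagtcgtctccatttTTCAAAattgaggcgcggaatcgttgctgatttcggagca
Kif23: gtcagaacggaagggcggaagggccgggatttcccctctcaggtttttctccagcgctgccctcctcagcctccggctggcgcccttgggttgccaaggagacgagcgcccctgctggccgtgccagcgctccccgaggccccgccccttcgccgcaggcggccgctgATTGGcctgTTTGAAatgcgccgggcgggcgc
Kif21b: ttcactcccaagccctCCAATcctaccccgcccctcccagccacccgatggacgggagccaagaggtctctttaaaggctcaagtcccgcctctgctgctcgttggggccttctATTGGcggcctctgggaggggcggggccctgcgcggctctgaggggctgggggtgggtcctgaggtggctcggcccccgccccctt
Both of these mitotic promoters hold a CCAAT box followed by a CHR. In Kif11 they begin 66 and 40 bases before the start, and in Kif23 they begin 32 and 23 bases before it. The Kif21b stretch holds 2 CCAAT boxes, which begin 184 and 86 bases before the start, and no CHR letters.

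Promoter sites were stretches covered by a filtered peak in both Foxr2 p53LOF replicates and lying at most 1 kb from a protein-coding start. Filtered peaks had a fold above 6, a −log10 q above 6, a length under 10000 bp and no overlap of 10 bp or more with a V5 control peak. Foxr2 occupied the promoters of 27 of the 39 kinesin genes (69.2%), while 39.3% of all protein-coding genes had such a site. All 27 also had a site within 1 kb of the main start, the start of the principal transcript, where the share of all genes was 37.6%. A promoter site was found at 10 of 12 mitotic kinesins (83.3%), 11 of 15 transport kinesins (73.3%), 3 of 6 cilium kinesins and 3 of 6 other members. The shares of the mitotic and transport groups were not tested against each other.

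**Figure D1:**
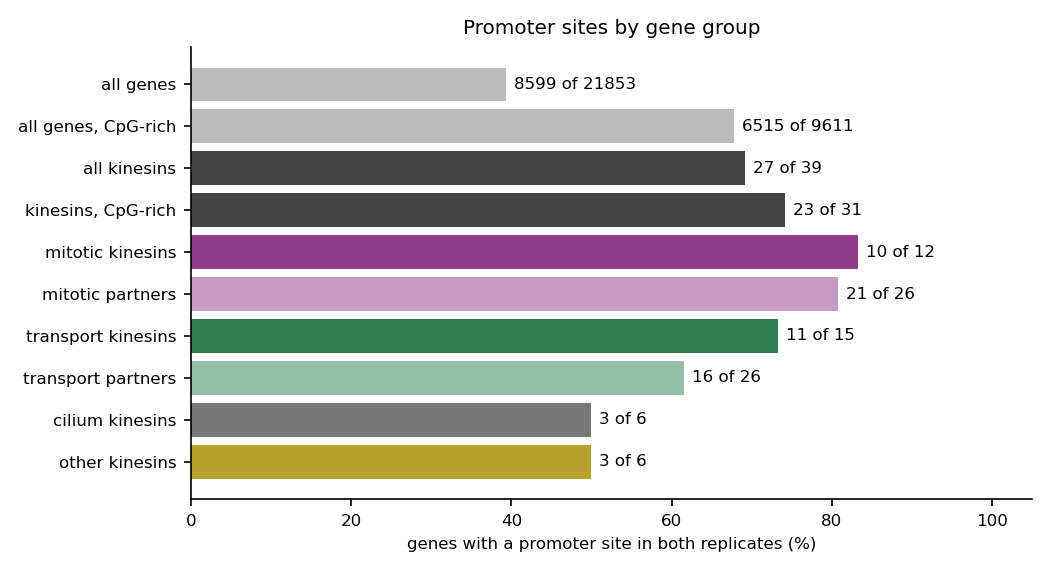
Percentage of genes with a promoter site in both Foxr2 p53LOF replicates (horizontal axis) in each gene group, with the counts printed at the bars and paler bars for the partner lists. Mitotic kinesins reached 10 of 12 and transport kinesins 11 of 15, against 8599 of 21853 for all genes and 6515 of 9611 for genes with a CpG-rich promoter.

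The composition of the promoters was compared with these counts. A promoter was called CpG-rich where the 300 bases around the main start, 250 before and 50 after, had a GC content of 50% or more and a CpG observed over expected ratio of 0.6 or more. Kinesin promoters were CpG-rich in 31 of 39 genes (79.5%), against 44.0% of all genes. Among CpG-rich promoters, 67.8% of all genes and 23 of 31 kinesin genes (74.2%) had a promoter site. Of the 8 kinesin genes without a CpG-rich promoter, Kif14, Kif20a, Kif22 and Kif9 had one, against 17% of all such genes, and 3 of these 4 are mitotic. Kif20a, Kif22 and Kif9 lay close under a cutoff, with GC contents of 48.7%, 49.7% and 51% and CpG ratios of 1.02, 0.879 and 0.599. Over all genes without a CpG-rich promoter the medians were 48.7% and 0.25, so the 17% is an unlike background for them. The strongest sites of Kif20a, Kif22 and Kif9 are also shared with Brd8, Maz and Klhl18. The CpG-rich share was 66.7% for mitotic and 93.3% for transport kinesins. Their median GC contents were 57.2% and 66.3%, and their median CpG ratios were 0.862 and 0.764. By group, 7 of 8 CpG-rich mitotic and 11 of 14 CpG-rich transport kinesins had a promoter site. The part of base composition in the result was not tested further.

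Folds at kinesin promoters were close to those at other genes. The lower of the 2 replicate folds had a median of 9.28 over the 27 kinesin promoter sites, and of 10.2 over the 8599 genes with a site. It was 8.62 over the 10 mitotic and 10.2 over the 11 transport kinesins. This order turned in replicate 2 taken alone, with medians of 12.5 over 11 mitotic kinesins, Kif4 now among them, and 10.2 over 11 transport kinesins. Over the 10 mitotic sites the replicate 2 median was 13.3. The order also turned at a minimum fold of 10, with 12.8 over 4 mitotic and 11.7 over 6 transport kinesins. That 12.8 includes the Kif22 site near Maz, and at its main start Kif22 had a lower fold of 6.24, under this minimum. A lower fold of 10 or more was reached by 13 of 39 kinesin genes, among them 4 mitotic and 6 transport members, against 19.8% of all genes.

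**Figure D2:**
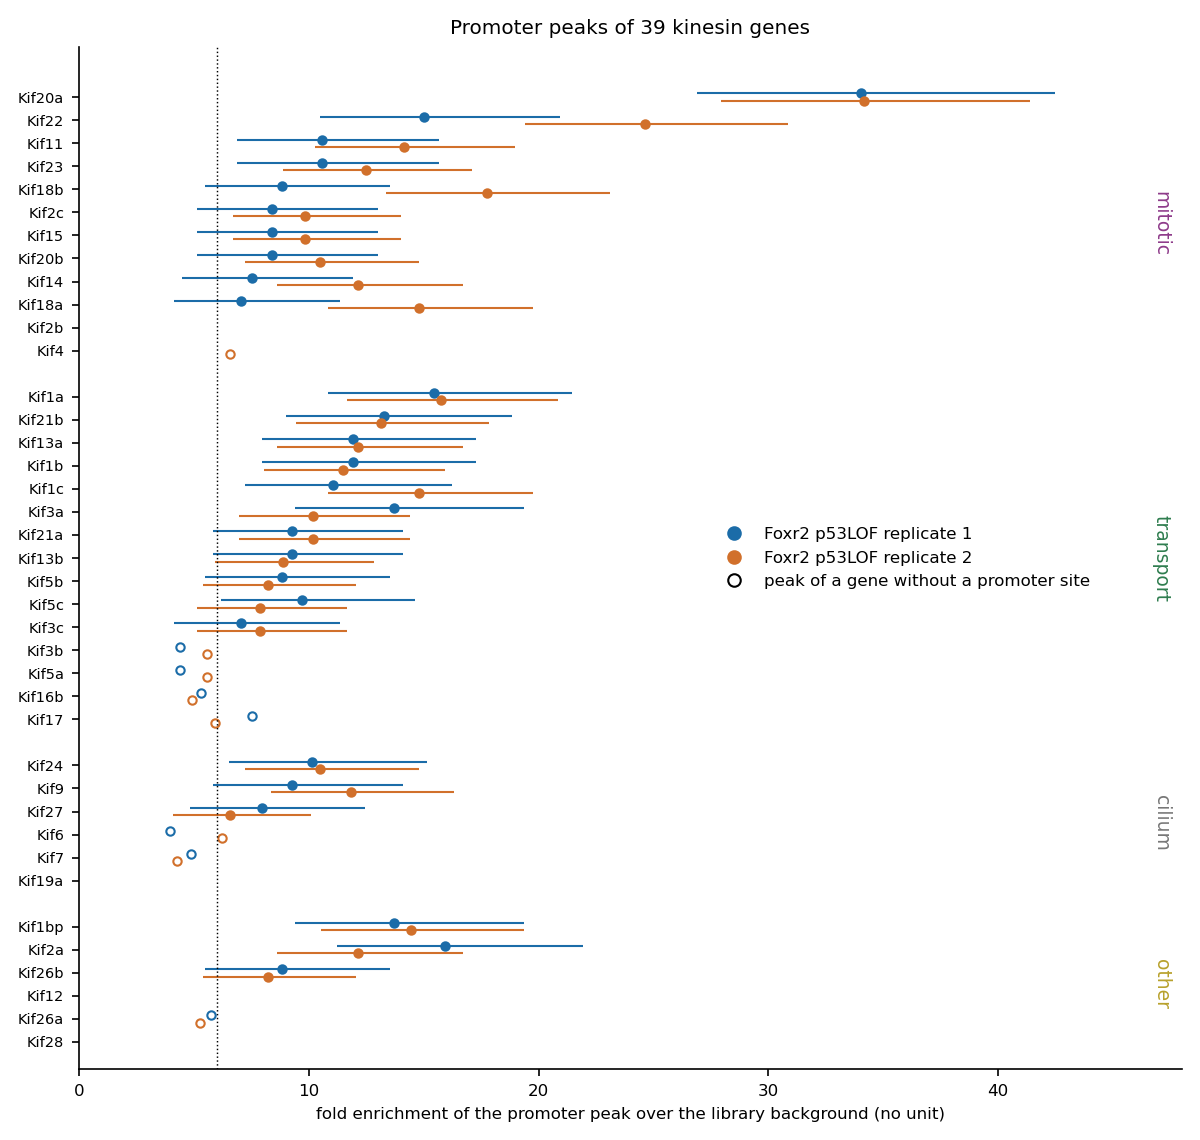
Fold enrichment of promoter peaks over the library background (horizontal axis) for the 39 kinesin genes, with Foxr2 p53LOF replicate 1 in blue and replicate 2 in orange. Filled points are promoter sites with 95% exact Poisson intervals, open points are the highest promoter peaks of genes without a site, and the dotted line is the minimum fold of 6. Kif20a stands at 34.02 and 34.2, above every other member.

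Among the mitotic kinesins, Kif20a, which brings the Aurora B complex to the central spindle for cytokinesis, had the highest folds of the whole family. Its promoter peak on chromosome 18 (34623792 to 34625547) had a fold of 34.02 in replicate 1 (interval 26.9 to 42.5, 76 fragments) and 34.2 in replicate 2 (28.0 to 41.4, 103 fragments). The lower value ranked above 99.1% of all genes with a promoter site. The summits lay 10 bases before and 2 bases after the start, and the same site is within 1 kb of a start of Brd8, so the peak cannot be assigned to either gene alone.

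The motors that build the bipolar spindle both carried a site. Kif11, the kinesin-5 motor that pushes the spindle poles apart, had folds of 10.6 (6.89 to 15.7) and 14.1 (10.3 to 19.0) at 37374960 to 37377572 on chromosome 19. Kif15, which backs it up, had 8.40 (5.16 to 13.0) and 9.86 (6.71 to 14.0), at a site that also serves the start of 1110059G10Rik. The intervals of these motors overlapped in each replicate, so their order was not resolved at this depth.

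The kinesin-8 motors had the highest ratios of the replicate 2 to the replicate 1 fold in the mitotic group. Kif18a, which damps the oscillation of chromosomes at the metaphase plate, had a fold of 7.07 (4.15 to 11.4) in replicate 1 and 14.8 (10.8 to 19.7) in replicate 2, at a promoter shared with Mettl15. Kif18b, which acts on astral microtubules, had 8.84 (5.50 to 13.6) and 17.7 (13.4 to 23.1). Both were about double in replicate 2, with intervals that still touched. Kif2c, the microtubule depolymerase of the centromere, had 8.40 (5.16 to 13.0) and 9.86 (6.71 to 14.0), while its relative Kif2b, a gene of 2244 bp, had no promoter peak in any of the 4 libraries. Kif4, a chromokinesin of the central spindle on chromosome X, had no promoter peak in replicate 1 and a peak of 6.57 (4.09 to 10.1) in replicate 2.

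Kif22, a chromokinesin that pushes chromosome arms away from the poles, had promoter sites at both of its ends. The stronger site, at 127024796 to 127028279 on chromosome 7, had folds of 15.0 (10.5 to 20.9) and 24.6 (19.4 to 30.9). Its summits lay past the 3′ end of the gene, 1619 and 1719 bases beyond the start of a short transcript, and the site is within 1 kb of a start of Maz. The site at the main start of Kif22, at 127041958 to 127042910, was near the threshold, with 6.63 (3.82 to 10.8) and 6.24 (3.83 to 9.68). With Kif22 and all other genes taken at their main starts, the median lower fold of the mitotic kinesins was 8.40.

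The other motors of cytokinesis had lower folds than Kif20a. Kif23, which forms centralspindlin with Racgap1, had 10.6 (6.89 to 15.7) and 12.5 (8.89 to 17.1), and Kif20b, a motor of the midbody, had 8.40 (5.16 to 13.0) and 10.5 (7.25 to 14.8). Kif14, needed for the final cut between daughter cells, had 7.51 (4.48 to 11.9) and 12.2 (8.61 to 16.7). The Kif14 site covers the 5′ end of the gene, and its summits lay 2024 and 1384 bases before the nearest start of a protein-coding transcript, so it counts as a promoter site by its edge alone.

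The conventional kinesins (kinesin-1), which carry much of the axonal cargo, were split. Kif5b, the widely expressed heavy chain, had folds of 8.84 (5.50 to 13.6) and 8.21 (5.38 to 12.1), and Kif5c, a neuronal one, had 9.72 (6.19 to 14.6) and 7.89 (5.12 to 11.7). Kif5a, the other neuronal heavy chain, had promoter peaks below the minimum, at 4.42 and 3.98 in replicate 1 and 5.59 in replicate 2. Its promoter had a GC content of 49.7% and a CpG observed over expected ratio of 0.367. This was the only transport kinesin promoter that was not CpG-rich.

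The kinesin-2 motors, in which Kif3a pairs with Kif3b or, in neurons, with Kif3c, differed likewise. Kif3a had a fold of 13.7 (9.39 to 19.4) in replicate 1 and 10.2 (6.98 to 14.4) in replicate 2, with summits 15 and 8 bases from the start. Kif3c reached 7.07 (4.15 to 11.4) and 7.89 (5.12 to 11.7). Kif3b had peaks of 4.42 (interval up to 7.99) and 5.59 (3.33 to 8.87), under the minimum fold in both replicates but with intervals that overlapped those of Kif3c. Kif17, a kinesin-2 of dendrites, passed in replicate 1 with 7.51 (4.48 to 11.9) and missed narrowly in replicate 2 with 5.91 (3.58 to 9.27).

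The kinesin-3 motors, the carriers of vesicles, held most of the higher transport folds. Kif1a, the motor of synaptic vesicle precursors, had 15.5 (10.9 to 21.4) and 15.8 (11.7 to 20.9). Kif1b, which also moves mitochondria, had 11.9 (7.95 to 17.3) and 11.5 (8.07 to 15.9). Kif1c had 11.1 (7.24 to 16.2) and 14.8 (10.8 to 19.7) at a site shared with Inca1. Kif13a had 11.9 (7.95 to 17.3) and 12.2 (8.61 to 16.7). Kif13b had 9.28 (5.84 to 14.1) and 8.87 (5.91 to 12.9), and Kif16b, a motor of early endosomes, had no promoter peak above 5.30 in replicate 1 or above 4.93 in replicate 2. Of the kinesin-4 relatives found in dendrites and axons, Kif21b had 13.3 (9.02 to 18.9) and 13.1 (9.44 to 17.9), and Kif21a had 9.28 (5.84 to 14.1) and 10.2 (6.98 to 14.4).

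Of the cilium kinesins, Kif24, which acts in the disassembly of cilia, had folds of 10.2 and 10.5 at a site shared with Nudt2, Kif9 had 9.28 and 11.8 at a site shared with Klhl18, and Kif27 had 7.95 and 6.57. Kif7, a component of hedgehog signaling in the cilium, had peaks of 4.86 and 4.27, below the minimum. Kif6 passed in replicate 2 only, with 6.24, and Kif19a had no promoter peak. Among the other members, Kif2a, a microtubule depolymerase of neurons and of the spindle, had 15.9 and 12.2, Kif1bp had 13.7 and 14.5, and Kif26b had 8.84 and 8.21. Kif26a had promoter peaks of 5.74 and 5.26, and Kif12 and Kif28 had no promoter peak.

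Before the filter, 34 kinesin genes had a promoter peak in replicate 1 and 35 in replicate 2, against 0 in each V5 control replicate. Over all genes these shares were 53.4% (replicate 1) and 54.4% (replicate 2), against 0.124% and 0.0869% for the controls. An exact two-sided permutation test over the 4 libraries gave p = 0.3333, the smallest value that 2 libraries against 2 can reach. No control peak of either replicate lay in or within 1 kb of a kinesin gene. To exceed a fold of 6, a summit needed 13 fragments in Foxr2 p53LOF replicate 1, 18 in replicate 2, and 16 and 9 in the control replicates. Only 4 members had no promoter peak of any height in either Foxr2 p53LOF replicate, and these were Kif2b, Kif19a, Kif12 and Kif28.

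The balance between the 2 replicates was compared at the promoter sites. The fold was higher in replicate 2 at 10 of 10 mitotic promoter sites and at 5 of 11 transport sites, against 75.1% of all genes with a site. The ratio of the replicate 2 fold to the replicate 1 fold had a median of 1.29 in mitotic kinesins, 0.991 in transport kinesins and 1.15 over all genes. It ran from 1.00 at Kif20a to 2.09 at Kif18a among mitotic members, and from 0.744 at Kif3a to 1.34 at Kif1c among transport members, so the groups overlapped. With main starts only, 9 of 10 mitotic sites were higher in replicate 2, the exception being Kif22, and the median was 1.21. The intervals of the 2 replicates overlapped at all 27 members, and the difference between the groups was not tested. Mitotic partner genes, such as Aurka, Plk1 and Cdk1, were higher in replicate 2 at 18 of 21 sites, with a median ratio of 1.33, and transport partners at 11 of 16, with a median of 1.20.

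**Figure D3:**
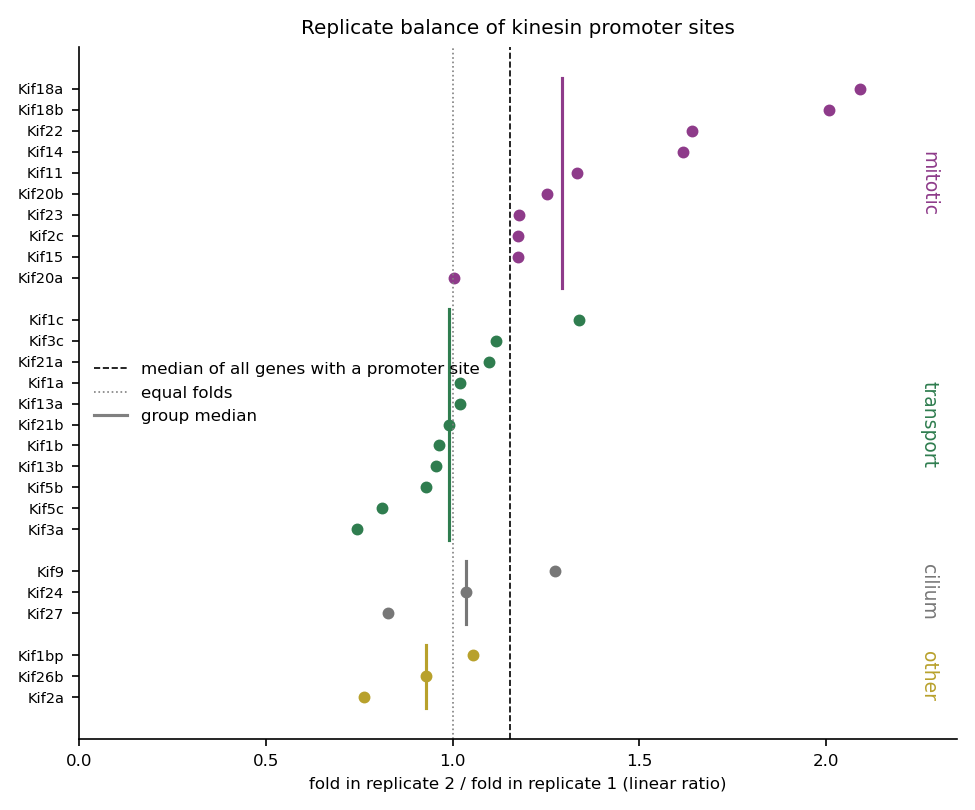
Fold in replicate 2 divided by fold in replicate 1 (horizontal axis, linear) at the 27 kinesin promoter sites, with a coloured line at each group's median and a dashed line at the median of all genes, 1.15. Mitotic kinesins lie at or above 1.00 up to 2.09, and transport kinesins lie between 0.744 and 1.34.

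The partner genes gave the wider setting of each role. The mitotic partner list held 26 genes of the spindle, kinetochore and cell cycle kinases, of which 21 (80.8%) had a promoter site, with a median lower fold of 8.84. The transport partner list held 26 genes, of kinesin light chains, adaptors, dynein and dynactin subunits and the kinesin motors Kifc2 and Kifc3. Of these, 16 (61.5%) had a promoter site, with a median lower fold of 9.13. Racgap1, the partner of Kif23, had folds of 9.28 and 13.8, and Prc1, the partner of Kif4 at the central spindle, had 8.84 and 10.8. Kifap3, the adaptor of the Kif3a motors, had 8.40 and 7.23, and Klc1, a light chain of the Kif5 motors, had 6.19 and 8.54. The shares of all genes were 39.3% and, for CpG-rich promoters, 67.8%, and 14 of 26 transport partners had a site at the main start.

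Short sequence elements were counted in the promoters, with no test between the groups. The 300 bases around the main start were searched on both strands for 7 motifs. CHR letters occurred in 6 of 12 mitotic kinesin promoters (Kif11, Kif15, Kif18b, Kif20b, Kif22 and Kif23) and in 0 of 15 transport promoters, against 15.6% of all promoters and 8.52% of CpG-rich ones. The partner lists behaved alike, with 17 of 26 mitotic and 1 of 26 transport partners. Among the cilium and other kinesins, CHR letters occurred in Kif26b alone, so 7 of 39 kinesin promoters held them. The mitotic matches are printed in 30-base windows with the CHR in capitals, so that their neighbouring bases can be compared. They lie on the strand of the gene at chr19:37376351-37376380 for Kif11, chr9:122951050-122951079 for Kif15, chr11:102925104-102925133 for Kif18b, chr19:34922353-34922382 for Kif20b, chr7:127042618-127042647 for Kif22 and chr9:61946780-61946809 for Kif23, in mm10.
Kif11: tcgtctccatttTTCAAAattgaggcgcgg
Kif15: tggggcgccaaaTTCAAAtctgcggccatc
Kif18b: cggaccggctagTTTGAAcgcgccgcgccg
Kif20b: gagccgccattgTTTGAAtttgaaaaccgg
Kif22: ccaacctggcaaTTCAAAagcctgaaagtg
Kif23: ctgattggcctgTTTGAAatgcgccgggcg
The CHR letters began within 40 bases of the start in 5 of these 6 genes, and 164 bases before it in Kif22. Kif15 held another match 199 bases before its start, and Kif20b held another 10 bases after its start. All 6 genes had a promoter site, and so did 4 of the 6 mitotic kinesins without CHR letters, Kif20a with its high folds among them. Among all CpG-rich promoters with CHR letters, 71.6% had a site, close to the 67.8% of CpG-rich promoters as a whole. Over all genes, of which Kif22 is one without a CpG-rich promoter, 27.4% of promoters with CHR letters and 41.5% of those without had a site.

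**Figure D4:**
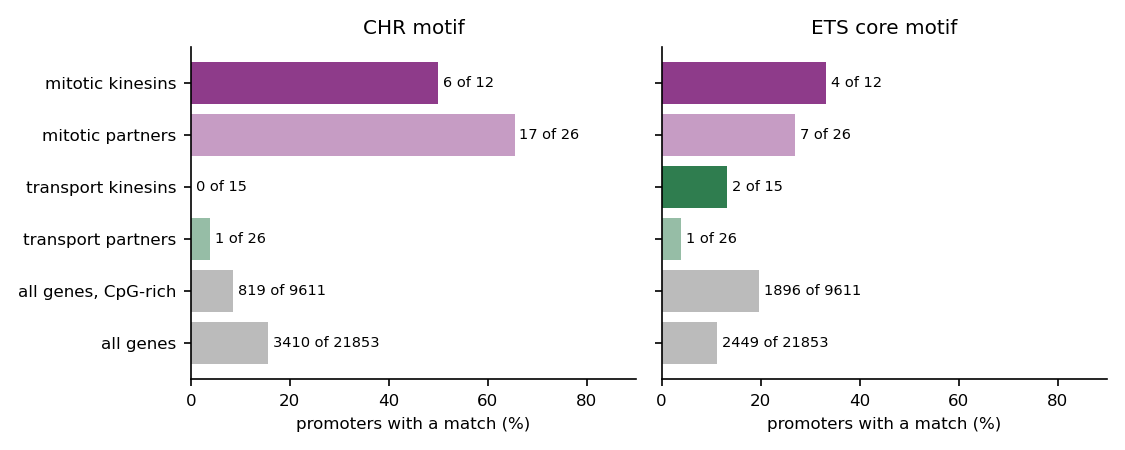
Percentage of promoters (300 bases around the main start, both strands) with a CHR match (left) and with an ETS core match (right) in mitotic and transport kinesins, their partner lists and all genes, with the counts at the bars. CHR matches stand at 6 of 12 mitotic and 0 of 15 transport kinesins, and ETS core matches at 4 of 12 and 2 of 15.

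The ETS core, CCGGAAG or its reverse complement CTTCCGG, was found in 4 of 12 mitotic and 2 of 15 transport promoters, against 11.2% of all promoters and 19.7% of CpG-rich ones. The windows show the bases around the core in these 6 genes. Their positions are chr4:117182664-117182693 for Kif2c, chr11:102925088-102925117 for Kif18b, chr19:34922303-34922332 for Kif20b, chr7:127042526-127042555 for Kif22, chr11:53567165-53567194 for Kif3a and chr2:142901608-142901637 for Kif16b, with the core in capitals on the strand of the gene.
Kif2c: ccggccacgcgCCGGAAGtcggagaccaag
Kif18b: aacgcgccgcgCCGGAAGaaggttggttcg
Kif20b: cccagggctcgCCGGAAGccccgcccactc
Kif22: tgctttcgagaCCGGAAGtgagcccgagac
Kif3a: cactgccagcgCCGGAAGctcctggcagtc
Kif16b: cggggcccagaCTTCCGGgccccgcccctt
The core began 43 bases before the start in Kif2c, 47 in Kif20b and 73 in Kif22, where another match began 25 bases before it, and 18 bases after the start in Kif18b. In Kif3a and Kif16b it began 203 and 95 bases before. Of these 6 genes, all but Kif16b had a promoter site, against 70.1% of all genes with the core in this window. Among CpG-rich promoters with the core the share was 78.4%, and of the 6 genes only Kif22 was without a CpG-rich promoter.

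CCAAT boxes occurred in 7 of 12 mitotic and 5 of 15 transport promoters, against 38.6% of all promoters. The E-box CACGTG occurred in none of the 39 kinesin promoters, against 7.77% of all promoters. A forkhead motif, GTAAACA, occurred in 1 member, Kif27, against 2.92% of all promoters. The letters GCATGCGC of NRF1 occurred in Kif3a and Kif26a (3.75% of all promoters), and those of E2F, TTTGGCGC or TTTCCCGC, in Kif15, Kif18a and Kif13b (2.11%). A match describes letters in a window and does not show that a factor is bound there.

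Away from the starts, sites in the gene body were seen in transport kinesins and in no other group. A gene body site overlapped the gene and lay more than 1 kb from each of its protein-coding starts. Such sites were present in 6 kinesin genes, all of the transport group (Kif1b, Kif3c, Kif13a, Kif13b, Kif21a and Kif21b), against 8.29% of all genes. This held for the filter as stated. With no minimum fold Kif11 and Kif6 also had a gene body site, with a 500 bp promoter window Kif14 and Kif22 did, and basic transcripts only or main starts only added Kif22. Replicate 1 alone added Kif6, and replicate 2 alone added Kif23, Kif6, Kif19a and Kif26b. Longer genes as a whole had more gene body sites. Among genes of 40 kb or more, 18.4% of all genes, 6 of 12 transport kinesins, 0 of 6 mitotic, 0 of 4 cilium and 0 of 3 other members had a gene body site. The median length was 51533 bp for transport, 38164 bp for mitotic, 59922 bp for cilium and 44904 bp for other members. All 6 kinesin genes with a gene body site were of 40 kb or more, and the part of gene length in the count was not tested.

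The 6 genes held 9 gene body sites, with replicate 1 summits in introns in each case. The highest, in Kif21b, spanned 6173 bp (chromosome 1, 136137502 to 136143674), with folds of 19.4 (14.2 to 26.04) and 27.6 (22.1 to 34.1) at a summit 8867 bases from the nearest start. These folds lay above those at the Kif21b promoter, 13.3 and 13.1, with intervals that overlapped in replicate 1 and were apart in replicate 2. In Kif21a, a site 31914 bases from the nearest start (chromosome 15, 91017060 to 91019306) had folds of 18.1 (13.1 to 24.5) and 20.4 (15.7 to 26.1), against 9.28 and 10.2 at its promoter, again with intervals apart in replicate 2 only.

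In Kif1b, a site 51829 bases from the main start (chromosome 4, 149254772 to 149256493) had folds of 13.3 (9.02 to 18.9) and 14.5 (10.6 to 19.4). Another Kif1b site (149246468 to 149247774), 60583 bases from the main start and 48429 from another start, had 8.84 (5.50 to 13.6) and 16.8 (12.5 to 21.99) and lay within 1 kb of the start of a retained-intron transcript. In Kif3c, a site 6774 bases from the start (chromosome 12, 3370562 to 3372330) had 9.28 (5.84 to 14.1) and 15.8 (11.7 to 20.9). The remaining sites, a pair in Kif21a and one each in Kif13a and Kif13b, had lower folds of 6.19 to 8.84. The GC content of the 200 bases at the summit had a median of 46.5% over the 9 gene body sites and 60% over the 27 promoter sites, and over all genes it was 49% at gene body sites and 61.5% at promoter sites.

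**Figure D5:**
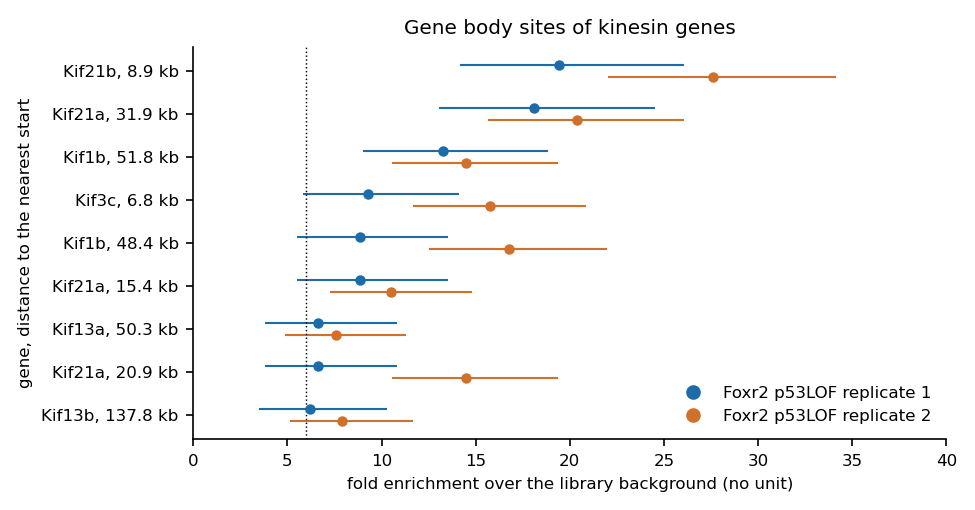
Fold enrichment over the library background (horizontal axis) at the 9 gene body sites of kinesin genes, with replicate 1 in blue, replicate 2 in orange, 95% exact Poisson intervals and the minimum fold of 6 as a dotted line. Each row gives the gene and the distance of the replicate 1 summit from the nearest protein-coding start. The Kif21b and Kif21a sites at the top have folds of 18.1 to 27.6.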

How the data were processed

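The authors aligned reads to mm10 with BWA (0.7.17) after Trimmomatic (0.39), removed duplicates with Picard (2.26.6) and called peaks library by library with MACS2 (2.2.7.1), per the submitters' processing notes and the methods. The fold deposited for each peak is a ratio: 1 was added to the fragments at the summit and to the library background before they were divided. MACS2 also gave the −log10 p, the −log10 q and the score that the authors deposited.

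The background of each library was sought between 0.3 and 4, from folds up to 30. The value kept gave the largest share of peaks with whole fragment numbers whose Poisson upper tail matched the deposited −log10 p. With it, 100% of these folds gave whole numbers within 0.02. The filter on peaks stated in the methods was applied, the later intersection with snATAC-seq peaks was not used here, and sites were stretches shared by both replicates by 1 bp or more, 11947 in all. Positions are in GRCm38 (mm10), counted from 1, with GENCODE M21 genes. Sequences were read from the RefSeq copy of GRCm38. Python 3.11.15, numpy 2.4.6 and scipy 1.17.1 were used. The recovery of the background and the calling of promoter sites were tested on simulated data, and the other steps were not.

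The members, role groups, partner lists and motifs were chosen with earlier results of these data known. Named were all mitotic and transport members, other members with a site, and the 5 gene body sites with the highest lower fold. Members without a site were added. The windows around CHR and ETS matches were added after the values were seen. Alternatives covered each filter, the overlap, the promoter window, the transcripts, the grouping and each replicate.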

Additional observations from a re-analysis of the deposited data

How the results depend on the processing

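The counts of 27 kinesin, 10 mitotic, 11 transport and 3 cilium genes with a promoter site stayed within 1.5 times under every change of the control overlap, the q minimum, the length limit, the replicate overlap, the promoter window and the transcripts used. A minimum fold of 10 left 13 kinesin, 4 mitotic, 6 transport and 1 cilium gene with a promoter site and 3 genes with a gene body site, and gave medians of 12.8 and 11.7 for mitotic and transport kinesins, since it keeps the higher sites only. Only the neuron-enriched transport members, fewer by construction, gave 4 of 6. Leaving out sites shared with another gene, chosen after seeing the data, left 21 kinesin, 7 mitotic, 10 transport and 1 cilium gene. Folds scaled to their chromosome's median gave 9.48 for transport kinesins, and the cause was not tested. Without each replicate in turn, kinesin genes with a promoter site numbered 28 to 29, and those with a gene body site 8 to 12. The mitotic median ran from 8.62 (without replicate 2) to 12.5 (without replicate 1) and the transport median from 10.2 to 10.4, so the order of the groups turned with replicate 2 alone. The transport median was the higher in 14 of 16 settings. With replicate numbers as a block, swapping libraries only within a number, the exact permutation p was 0.5, the smallest possible. Without each library in turn, which leaves 1 library in an arm, doubling the one-sided exact value gave 0.6667. The interval of a fold near 6 reaches from about 3.5 to 10.3, as at Kif13b, so sites near the minimum cannot be told from peaks just under it at this depth.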
